A study of Homo sapiens with 13 samples.

Results

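The H146-only intronic regions are stretches of accessible chromatin that lay inside protein-coding genes in H146 cells and had no counterpart in H82 cells. A region of the H146 atlas belonged to the set if it lay on chromosomes 1 to 22, shared 0 bp with any H82 region, was at least 300 bp and under 1 kb wide, had its centre inside a protein-coding gene body but in no exon, and lay more than 1 kb from the 5′ end of any protein-coding gene. Of 169986 autosomal H146 regions, 12208 met the rule. The members were thus chosen on measured values, namely which line listed a region and how wide it was, so the absence from H82 and the width limits are descriptions and not findings. The regions were grouped by the gene that contained them, called here the host gene.

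H146 and H82 are established lines of human small cell lung cancer (SCLC), and the labels give both as wild type. ATAC-seq, which tags open DNA by means of a transposase, was carried out on 4 untreated H146 cultures and 3 treated for 14 days with 100 nM FHD-286, which blocks SMARCA4 and SMARCA2, the ATPase motors of the chromatin remodeller SWI/SNF, and on 3 untreated and 3 treated H82 cultures. Drug was renewed through the treatment. Of the H146 libraries, 3 controls formed one sequencing batch, and 1 control was sequenced with the 3 treated samples, but the labels do not say which control that was. The deposited values were 1 pooled list of regions per line, with chromosome, start and end on hg38 and no height, count or library of origin. A region could therefore come from treated cells, untreated cells or both, the effect of FHD-286 was not tested, and the depth of the libraries was unknown. Each line gives 1 value, so no spread between cultures could be had. Tests below take the 22 autosomes as units and say whether a difference held along the genome, not whether it would hold between cultures.

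Introns of long neural genes often hold enhancers, which are short stretches of DNA that bind transcription factors and act on a promoter at a distance. Enhancers differ between cell types far more than promoters do, and opening them usually takes a pioneer or lineage factor together with a remodeller such as SWI/SNF. In neuroendocrine SCLC basic helix-loop-helix factors such as NEUROD1 bind forms of the E-box, FOXA proteins bind forkhead sites, and OTX2 binds a homeobox site.

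6 members from the genes with the most members are printed here, to show the words that the comparisons below count. Each line gives the central 300 bp on the plus strand of hg38, in lower case. Capitals mark every match to CAGCTG, a palindromic form of the E-box, and to the forkhead word TGTTTAC or its reverse complement. Each member was chosen as the one in its gene with the most matches to these words, so the copies below follow from that choice. Over all members, 24.0% held CAGCTG, 3.78% held a second copy and 2.11% held both words. The TENM3 member (chr4:182292704-182293215, 512 bp) lay in intron 1, 149 kb from the 5′ end of the gene, and its window is chr4:182292810-182293109. The GRIK4 member (chr11:120698871-120699543, 673 bp) lay in intron 3, 187 kb from the 5′ end, with its window at chr11:120699057-120699356. The NEDD4L member (chr18:58344866-58345442, 577 bp) lay in intron 16, with its window at chr18:58345004-58345303. The NRXN3 member (chr14:79281316-79281687, 372 bp) lay in intron 15, 1111 kb from the 5′ end, with its window at chr14:79281352-79281651. The NAV2 member (chr11:19420951-19421486, 536 bp) lay 70.5 kb from the 5′ end, in no intron of the canonical transcript, with its window at chr11:19421069-19421368. The TCF4 member (chr18:55356946-55357851, 906 bp) lay in intron 6, 307 kb from the 5′ end, with its window at chr18:55357249-55357548.
TENM3: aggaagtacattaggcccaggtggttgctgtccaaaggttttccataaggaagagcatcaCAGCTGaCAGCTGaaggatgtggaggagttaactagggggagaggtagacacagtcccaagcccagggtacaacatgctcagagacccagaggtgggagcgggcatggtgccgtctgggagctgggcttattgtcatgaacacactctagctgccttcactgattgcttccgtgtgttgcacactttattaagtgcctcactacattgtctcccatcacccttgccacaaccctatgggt
GRIK4: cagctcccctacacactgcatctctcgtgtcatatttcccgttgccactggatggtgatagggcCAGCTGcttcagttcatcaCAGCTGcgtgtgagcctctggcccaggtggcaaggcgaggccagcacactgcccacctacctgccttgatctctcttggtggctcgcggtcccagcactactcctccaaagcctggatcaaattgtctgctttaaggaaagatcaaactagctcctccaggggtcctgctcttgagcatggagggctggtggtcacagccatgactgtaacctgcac
NEDD4L: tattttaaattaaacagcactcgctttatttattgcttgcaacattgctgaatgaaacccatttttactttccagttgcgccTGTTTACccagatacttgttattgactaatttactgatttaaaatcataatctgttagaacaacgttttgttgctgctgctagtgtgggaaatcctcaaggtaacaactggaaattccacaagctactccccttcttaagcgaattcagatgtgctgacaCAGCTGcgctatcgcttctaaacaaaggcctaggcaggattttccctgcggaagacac
NRXN3: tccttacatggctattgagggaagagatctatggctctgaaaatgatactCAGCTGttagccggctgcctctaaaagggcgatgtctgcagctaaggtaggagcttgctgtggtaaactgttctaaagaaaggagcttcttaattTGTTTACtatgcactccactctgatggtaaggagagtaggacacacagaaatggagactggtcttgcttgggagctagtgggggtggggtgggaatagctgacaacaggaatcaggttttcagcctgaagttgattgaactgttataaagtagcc
NAV2: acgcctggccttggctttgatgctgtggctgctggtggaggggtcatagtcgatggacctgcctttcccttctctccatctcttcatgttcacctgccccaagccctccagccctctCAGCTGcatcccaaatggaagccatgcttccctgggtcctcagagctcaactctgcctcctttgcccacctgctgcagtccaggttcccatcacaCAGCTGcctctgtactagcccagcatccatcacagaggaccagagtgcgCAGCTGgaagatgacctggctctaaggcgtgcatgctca
TCF4: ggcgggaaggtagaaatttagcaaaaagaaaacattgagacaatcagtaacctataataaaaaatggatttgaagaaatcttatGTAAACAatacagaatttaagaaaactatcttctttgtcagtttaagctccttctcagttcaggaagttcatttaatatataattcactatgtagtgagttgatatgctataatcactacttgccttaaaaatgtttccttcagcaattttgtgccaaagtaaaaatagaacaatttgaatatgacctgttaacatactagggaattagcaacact
The TENM3 and GRIK4 windows each held 2 copies of CAGCTG, and the TENM3 copies were separated by a single base. The NAV2 window held 3 copies. The NEDD4L and NRXN3 windows held 1 E-box of this form and 1 forkhead word each. The TCF4 window had a forkhead word and no CAGCTG, although it was the member of that gene with the most matches by the rule used, in which ties went to the widest. The nearest H82 region lay 608 bp from the NAV2 member, 730 bp from the TCF4 member, 1351 bp from the NRXN3 member, 2645 bp from the TENM3 member, 2966 bp from the NEDD4L member and 10917 bp from the GRIK4 member.

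The rule removed regions in steps. No H82 overlap was found for 50012 of the 169986 regions (29.4%), and 25826 of these (51.6%) had their centre in a protein-coding gene body. Leaving out exons left 23118, leaving out regions near a 5′ end left 22972, and the width limits left 12208 (53.1% of the step before). Another 10200 regions failed only because they were narrower than 300 bp, and 564 because they were wider. At the lower limit, 774 regions in the 10 bp under 300 bp stood outside and 676 in the 10 bp from it inside. At the upper limit, 22 members in the 10 bp under 1 kb stood beside 24 excluded regions in the 10 bp from it. As to overlap, 95 otherwise equal H146 regions were shared with H82 by 1 to 50 bp only, and 59 members lay within 50 bp of an H82 region without overlapping it. The members had a median width of 401 bp (quartiles 344 and 510 bp) and covered 5518 kb. The median distance to the nearest H82 region was 3581 bp (quartiles 1441 and 8372 bp), and 613 members (5.02%) lay within 500 bp of one.

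Of the 18055 autosomal protein-coding genes with introns, 5295 (29.3%) hosted at least 1 member. A single member was found in 2806 hosts (53.0%), and 637 genes (3.53% of all) held 5 or more. These 637 genes contained 5106 members, or 41.8% of them. Only 149 genes had 10 or more, 19 had 20 or more, and the highest count was 34, in TCF4. H82-only intronic regions of the same kind occurred in 3498 of the hosts (66.1%), against 40.6% of all genes, so most hosts also had regions that only H82 listed. That comparison is bound to gene length, because the median host had 86.5 kb of intron, the median gene 24.9 kb and the median host of 5 or more members 350 kb. Over the 18055 genes, the number of members had a Spearman correlation of 0.574 with the length of intron, and the number of H82-only regions one of 0.639, given as a description. Members were also spaced unevenly. The median distance to the next member was 26.7 kb, and 26.2% had another within 10 kb.

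TCF4 encodes an E-protein, the class of broadly expressed helix-loop-helix factor with which lineage factors such as NEUROD1 pair. It held 34 members, 17 shared regions and 2 H82-only regions over 413 kb of intron (chr18:55222185-55664787, minus strand). At 8.22 members per 100 kb of intron it was the only gene that stood both among the 15 hosts with the most members and among the 10 densest hosts with 5 or more. Up to 17 of the members fell within 100 kb. Intron 8 held 11, and introns 3 and 6 held 8 each. Their median width, 540.5 bp, exceeded the 401 bp of all members, and 19 of the 34 were 500 bp or wider. In their sequence, 2 of 34 windows held CAGCTG, 10 held CAGGTG and 10 held CAGATG, so CAGCTG was rarer in TCF4 members than over all members (24.0%). This contrast was chosen after its values were seen and was not tested.

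**Figure D1:**
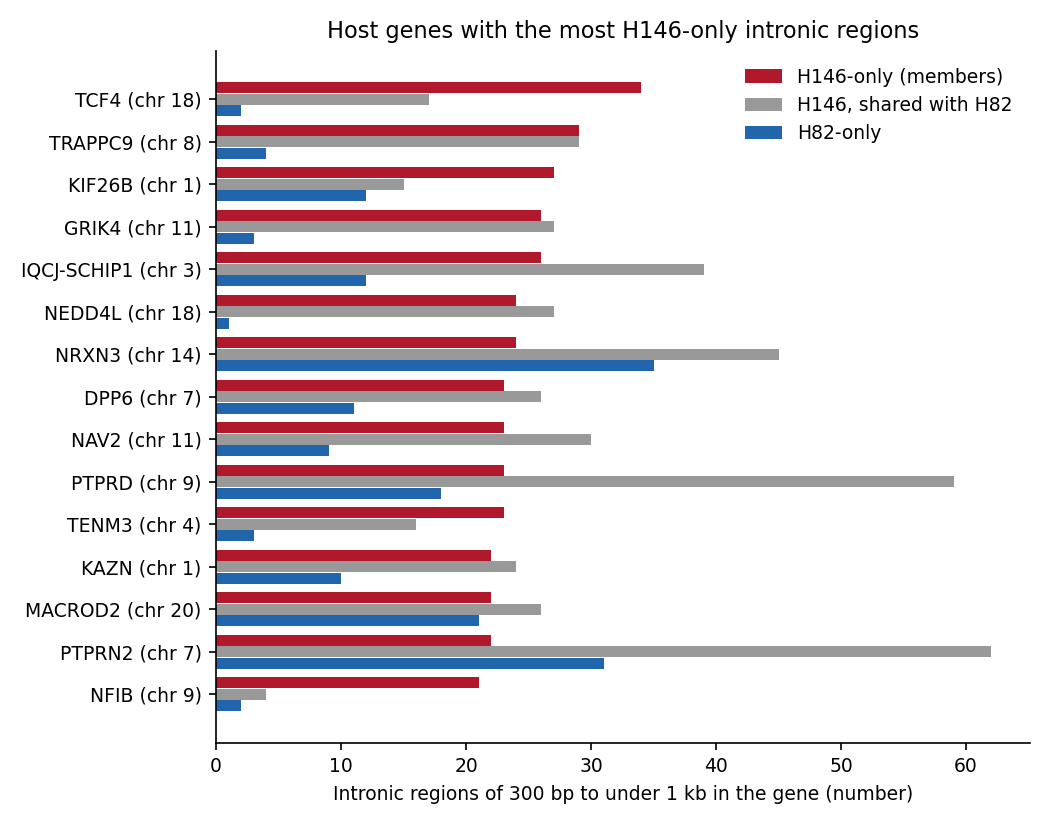
Bars give, for the 15 genes with the most members, the number of intronic regions of 300 bp to under 1 kb that were H146-only (red), shared with H82 (grey) or H82-only (blue). TCF4 has 34 red against 2 blue, whereas NRXN3 has 24 red against 35 blue and PTPRN2 22 against 31.

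Several of the other hosts with the most members encode synaptic and neuronal proteins. GRIK4, a kainate receptor subunit, held 26 members, 27 shared and 3 H82-only regions. TENM3, a teneurin of neuronal wiring, held 23, 16 and 3. NRXN3, a presynaptic adhesion molecule, held 24, 45 and 35, and PTPRD, a receptor tyrosine phosphatase of the synapse, held 23, 59 and 18. DPP6, an auxiliary subunit of Kv4 potassium channels, had 23 members beside 11 H82-only regions, and NAV2, a neuron navigator protein, 23 beside 9. PTPRN2, a membrane protein of dense-core vesicles, had 22 members against 31 H82-only regions. In NRXN3 and PTPRN2 the H82-only regions outnumbered the members, and in MACROD2, an ADP-ribosyl hydrolase gene with 2041 kb of intron, the counts were 22 and 21. In these genes a high count of members came with a high count of regions in the other line.

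The remaining hosts of the top 15 serve more general functions. TRAPPC9, a subunit of a vesicle trafficking complex, held 29 members, 29 shared and 4 H82-only regions. NEDD4L, a ubiquitin ligase that acts on ion channels, held 24, 27 and 1, and KIF26B, a kinesin family member, held 27, 15 and 12. IQCJ-SCHIP1, a readthrough gene, held 26, 39 and 12, of which 15 members lay in no other protein-coding gene. KAZN, which encodes a protein of cell junctions, held 22, 24 and 10. NFIB, a transcription factor of the nuclear factor I family whose gene is amplified in some SCLC, had 21 members with 4 shared and 2 H82-only regions. In NFIB, 15 of the 21 lay in intron 2, a count matched by NALF1 intron 1 and exceeded in no other single intron. Neither atlas had a region within 1 kb of the annotated 5′ end of NFIB, nor of NAV2, genes with several annotated promoters.

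**Figure D2:**
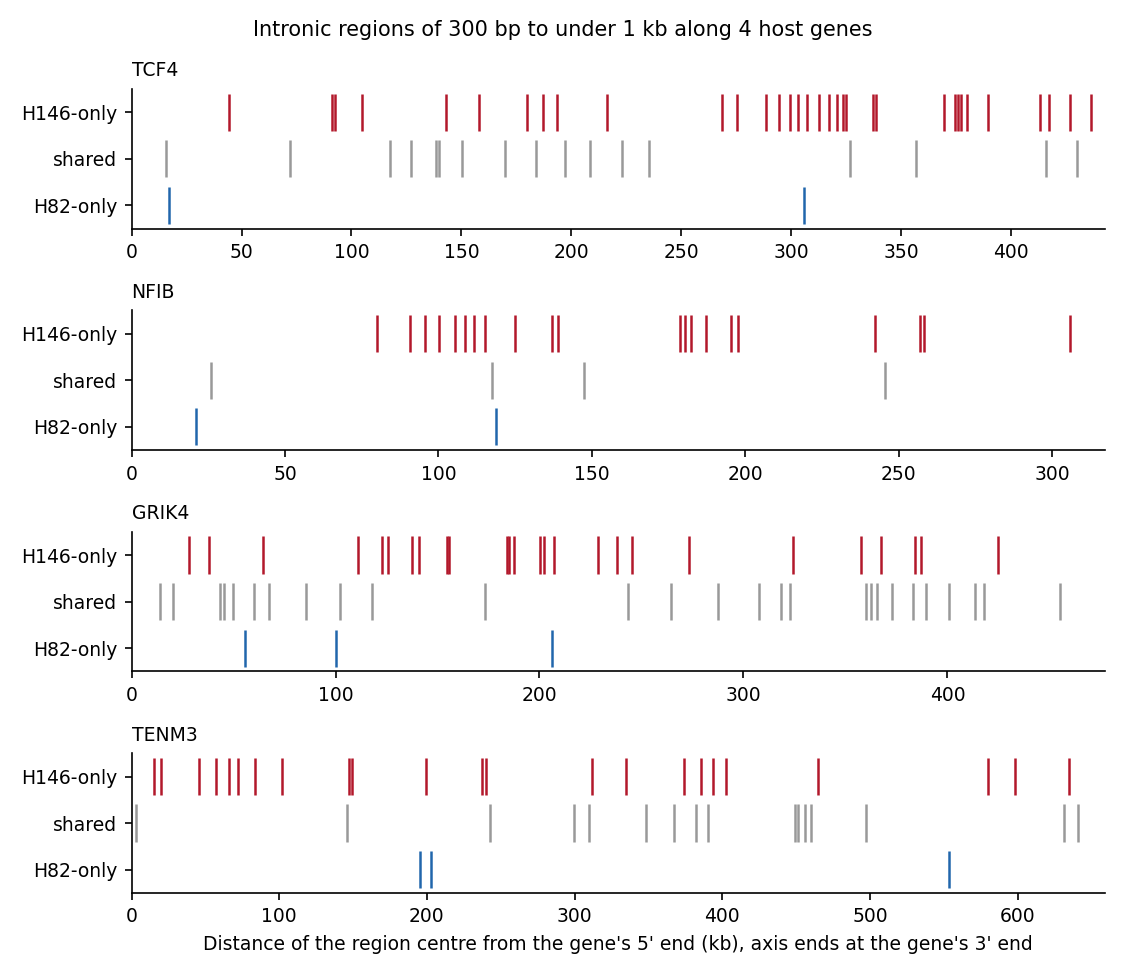
Each tick is the centre of an intronic region of 300 bp to under 1 kb, placed by its distance in kb from the 5′ end of the gene (axis to the 3′ end), for H146-only, shared and H82-only regions. In TCF4 the members gather in the 3′ part, whereas most of the 17 shared regions lie in the 5′ part, and NFIB has 21 members beside 4 shared regions.

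Where members lay along the genome moved with these counts. The members numbered 10.7 per Mb of intron over the autosomes and 24.2 per Mb on chromosome 18, which had 670 members against 245 H82-only regions. Members were 73.2% of line-only intronic regions there and 36.3% over all autosomes. The next highest densities were 14.4 per Mb on chromosome 11 and 13.4 per Mb on chromosome 8, and the lowest was 6.76 per Mb on chromosome 15. On chromosome 21 only 17.7% of line-only intronic regions were members. TCF4 and NEDD4L are both on chromosome 18, as are DCC, BCL2, CELF4, DTNA and SKOR2, named below. Without chromosome 18, 11538 members remained. The DNA copy number of each chromosome in each line was not measured, and its part in these densities was not tested.

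The surroundings of each gene give a closer comparison. Over all autosomes, 38.1% of line-only regions of any width were H146-only (50012 against 81223 in H82). In the 1 Mb to either side of TCF4, outside the gene, the share was 84.6% (88 against 16), and around NEDD4L it was 85.5%. It was 75.8% around TENM3, 67.9% around TRAPPC9, 67.5% around GRIK4 and 62.8% around NFIB. These were the 6 highest shares among the 15 hosts with the most members, so the excess around them follows from how they were picked. The share was 57.6% around KIF26B, 54.5% around IQCJ-SCHIP1, 54.4% around NAV2, 51.4% around PTPRD and 45.2% around NRXN3. It was 33.8% around PTPRN2 and 31.3% around MACROD2, below the 38.1% of all autosomes. KAZN had the lowest share of the 15. Within it, members were 68.8% of line-only regions of the rule, and in the 1 Mb to either side only 9.36% were H146-only (16 against 155). FOXP1, a forkhead transcription factor, held 15 members and 2 H82-only regions (88.2%) in a neighbourhood of 22.6% (14 against 48). DPP6 had 67.6% inside and 29.3% outside. KAZN, FOXP1 and DPP6 were singled out after these values were seen.

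Ranking by density brought up smaller genes. SKOR2, a neural transcriptional corepressor, had 5 members in 41.3 kb of intron, or 12.1 per 100 kb, and KCNC1, a Kv3 potassium channel, had 12 members at 11.2 per 100 kb. GNG4, a G protein gamma subunit, had 10.2, followed by NID1, a basement membrane protein, at 9.58 and ABCC6, a transporter, at 8.95. TPX2, a spindle assembly factor, had 8.48, TIMP2, an inhibitor of metalloproteinases, 7.79, and CAPN2, a calpain protease, 7.59. Some of these lie close together. GNG4 and NID1 are within 1 Mb of ARID4B on chromosome 1 (chr1:235131634-236065109 holds all of them), where H146-only regions made up 70.6% to 72.4% of line-only regions around each gene. Around TPX2, on chromosome 20, the share was 67.3%. Members of neighbouring genes such as these do not count as independent cases.

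H82-only intronic regions were absent from 44 of the 637 hosts with 5 or more members (6.91%). ARID4B, a chromatin-binding protein, had 10 members, 4 shared and 0 H82-only regions. BCL2, an inhibitor of apoptosis, had 8 members and 9 shared regions. CELF4, a neuronal RNA-binding protein, DTNA, a dystrobrevin, GSG1L, an auxiliary protein of AMPA receptors, JAKMIP1, a microtubule-associated protein, and NID1 each had 8 members too, as did KBTBD11-OT1. ARHGEF10, a guanine nucleotide exchange factor, had 7. KBTBD11-OT1 (chr8:1763888-1958627) and ARHGEF10 (chr8:1823926-1958641) overlap, so regions in the overlap count for both and these are not separate cases. BCL2, CELF4 and DTNA belong to chromosome 18, where H82-only intronic regions were the sparsest, at 8.84 per Mb. No H82-only region here means none of 300 bp to under 1 kb in an intron, and narrower or wider ones were not counted.

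A promoter open in H146 alone was about as rare among hosts of 5 or more members as among all genes. Of the 637 hosts with 5 or more members, 543 (85.2%) had a region within 1 kb of the 5′ end in both lines, 10 (1.57%) in H146 only, 21 (3.30%) in H82 only and 63 (9.89%) in neither. Over all genes with introns the shares were 77.9%, 1.81%, 4.88% and 15.4%. The 1297 genes with 5 or more H82-only intronic regions were alike, with 5.47% open in H82 only and 1.08% in H146 only. TCF4, GRIK4, TENM3, NEDD4L and NRXN3 each had a region at the 5′ end in both lines. A region in an intron need not act on the gene around it, and no gene expression was measured here.

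The gene lists, written with earlier results of these data known, were read per Mb of intron. For all genes the values were 10.7 members and 18.7 H82-only regions per Mb, with a median of 0 members a gene, and for the 3156 genes with 100 kb or more of intron they were 10.8 and 17.6, with a median of 2 and 74.9% of genes being hosts. Neural and neuroendocrine lineage factors had 14.3 members and 19.6 H82-only regions per Mb, and 35 of 57 genes were hosts (222 members). That list was led by TCF4 and NFIB, followed by RBFOX3 (18 members against 15 H82-only) and FOXP1, then RBFOX1 (11 against 41), the RBFOX genes being splicing regulators. Members were 42.3% of the line-only regions of the list, and without chromosome 18 this became 37.3%, against 35.3% for all genes. Without TCF4 alone it was 38.4%. By gene, 13 had more members than H82-only regions and 30 had fewer. Over all genes, 2665 had more and 5510 fewer, and among genes with 100 kb or more of intron 870 and 1815. The counts by gene of the lists below stand beside these.

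Channels and secretion genes followed. Voltage-gated and calcium-activated channels had 12.6 members and 17.6 H82-only regions per Mb, with 33 of 41 genes as hosts, among them KCNMA1 (19 members, 18 H82-only), CACNA2D1 (14, 7), CACNA2D3 (13, 8) and KCNIP4 (11, 17). Members were 41.6% of line-only regions of the list, with more members than H82-only regions in 12 genes and fewer in 19. Vesicle exocytosis genes had 12.02 and 16.8 per Mb, with 26 of 45 as hosts, a share of 41.7%, and more members than H82-only regions in 12 genes and fewer in 21. In that list SYT1, the calcium sensor of synaptic vesicles, held 14 members and 3 H82-only regions, RIMS2, a scaffold of the active zone, 12 and 5, and CADPS2, a priming factor of dense-core vesicles, 7 and 26. Genes of the same list thus differed in which line listed more regions.

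The other neural lists had 9.67 to 11.1 members per Mb, against 10.7 for all genes. Synaptic and neural adhesion genes had the most members, 301, and 35 of 42 were hosts, with a median of 5 a gene. Per Mb of intron, however, they had 10.2 members and 13.7 H82-only regions, the fewest H82-only regions of the 10 lists. Members were thus 42.8% of their line-only regions, the highest share of the lists, against 36.3% for all genes and 38.0% for genes with 100 kb or more of intron. The share was the same without chromosome 18, and it was 42.9% without its gene with the most members. By gene, 15 had more members than H82-only regions and 22 had fewer. CNTNAP2, a neurexin relative, held 18 members and 33 H82-only regions, and DSCAML1, an adhesion molecule, 17 and 12. Axon guidance genes had 11.1 members per Mb, with 36 of 44 as hosts, more members than H82-only regions in 16 genes and fewer in 23. DCC, the netrin receptor, held 20 members and 3 H82-only regions, and EPHB1, an ephrin receptor, 9 and 2, while ROBO1 and ROBO2, receptors for Slit ligands, held 8 against 19 and 9 against 16, and PLXNA2, a semaphorin receptor, 8 against 9. Members were 35.5% of the line-only regions of this list, and 32.6% without chromosome 18, where DCC lies. Neurotransmitter receptors had 9.67 members per Mb and a share of 38.5%, with more members than H82-only regions in 9 genes and fewer in 23. GRIK4 led them, followed by GRID1, a delta-type glutamate receptor, with 17 and 5, and GRIN2B, an NMDA receptor subunit, with 10 and 7.

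In members per Mb of intron, the lists of other cell types, SWI/SNF subunits and signalling pathways did not exceed the 10.7 of all genes. Muscle, cartilage and matrix genes had 9.92 members per Mb, blood lineage genes 9.77, SWI/SNF subunits 9.30, and genes of the Notch, Hippo and ERBB pathways 7.63, the lowest. Neurotransmitter receptors, at 9.67, stood below the muscle and blood lists. As shares of line-only regions, members were 33.6%, 36.4%, 37.0% and 30.5% in these lists, in the same order, against 36.3% for all genes. RUNX1, a blood transcription factor, nevertheless held 12 members and 7 H82-only regions. Among the SWI/SNF genes 7 of 28 were hosts. ARID1B had 10 members, SMARCA4 had 3 with 0 shared and 1 H82-only region, and SMARCA2 had 2 with 6 shared and 1 H82-only region. SRRM4, a splicing factor of neurons, had 4 of each kind. NEUROD1, FOXA1, FOXA2, NOTCH2 and REST had 0 members. NEUROD1, FOXA1 and FOXA2 have only 4.3, 1.73 and 1.74 kb of intron, so at 10.7 members per Mb a count of 0 says little about them. NEUROD1 had 1 shared region. NOTCH2 had 3 shared and 7 H82-only regions, and REST, a repressor of neuronal genes, had 3 shared.

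**Figure D3:**
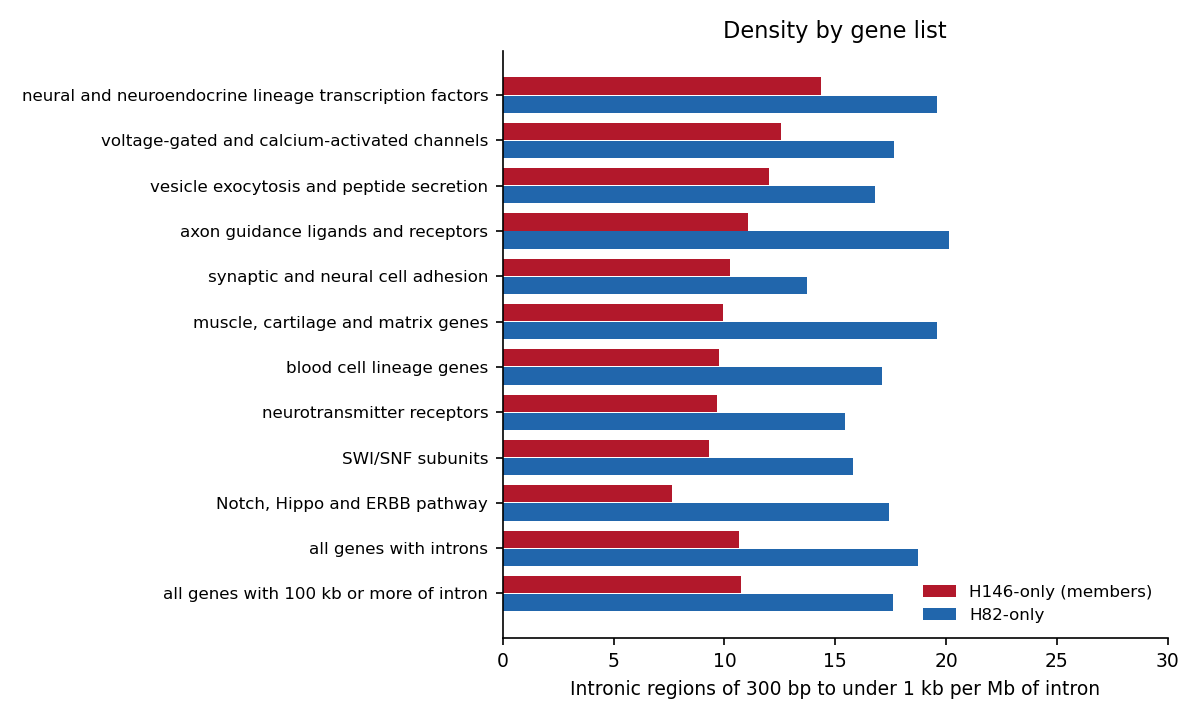
Bars give intronic regions of 300 bp to under 1 kb per Mb of intron, for members (red) and H82-only regions (blue), in 10 gene lists and in all genes. Lineage factors have 14.3 members per Mb against 10.7 for all genes, and the Notch, Hippo and ERBB list has 7.63.

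The rule did not use sequence, and the words were tested between groups of regions, although the words themselves were chosen with earlier results of these data known. Members were compared with their own flanks (20681 windows of 300 bp centred 2 kb away that touched no region of either atlas), with 27060 H146 intronic regions that H82 shared, with 21432 H82-only intronic regions, and with 12511 H146-only intergenic regions, all of the same widths. The share of central 300 bp windows with a match on either strand was taken for 24 consensus words. p-values come from a permutation test that flips the sign of the difference on each of the 22 autosomes (two-sided, 100000 resamples, smallest p 1e-05), adjusted by Benjamini-Hochberg over the 24 words. Errors are standard errors from leaving out each chromosome in turn. Differences and errors, here and below, are pooled over all regions, whereas the test weighs every chromosome equally. A p-value therefore need not follow the size of the printed difference against its error. A word is a description of letters and not a bound factor.

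Against flanks, 13 words were more frequent in the members and 6 less frequent. CAGCTG was present in 24.0% of members (2932 of 12208) and in 10.7% of flanks, a difference of 13.3 ± 0.445 percentage points (adjusted permutation p = 2.4e-05), higher on 22 of 22 chromosomes. A second copy was present in 3.78% of members and 0.875% of flanks. CAGGTG, an E-box form bound by E-proteins and by repressors such as ZEB1, was present in 37.9% and 23.8% (difference 14.2 ± 0.649). The forkhead word was present in 9.48% and 4.43%, a difference of 5.04 ± 0.282, also on 22 of 22 chromosomes. NFI half-sites (TTGGCA) were in 19.7% of members and 14.9% of flanks, and the SOX word (ACAATGG) in 6.41% and 4.16%. CAGATG, the form preferred by NEUROD1, was at 24.2% against 18.7%. The OTX2 word (TAATCC) went the other way, with 12.1% in members and 20.9% in flanks (a difference of −8.82 ± 0.572). Flanks had a lower GC content (42.1% against 46.4%), and with flanks weighted to the GC content of the members the directions held for the forkhead and OTX2 words and for CAGATG, as well as for CAGCTG at 10.5 points and CAGGTG at 8.30 points.

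**Figure D4:**
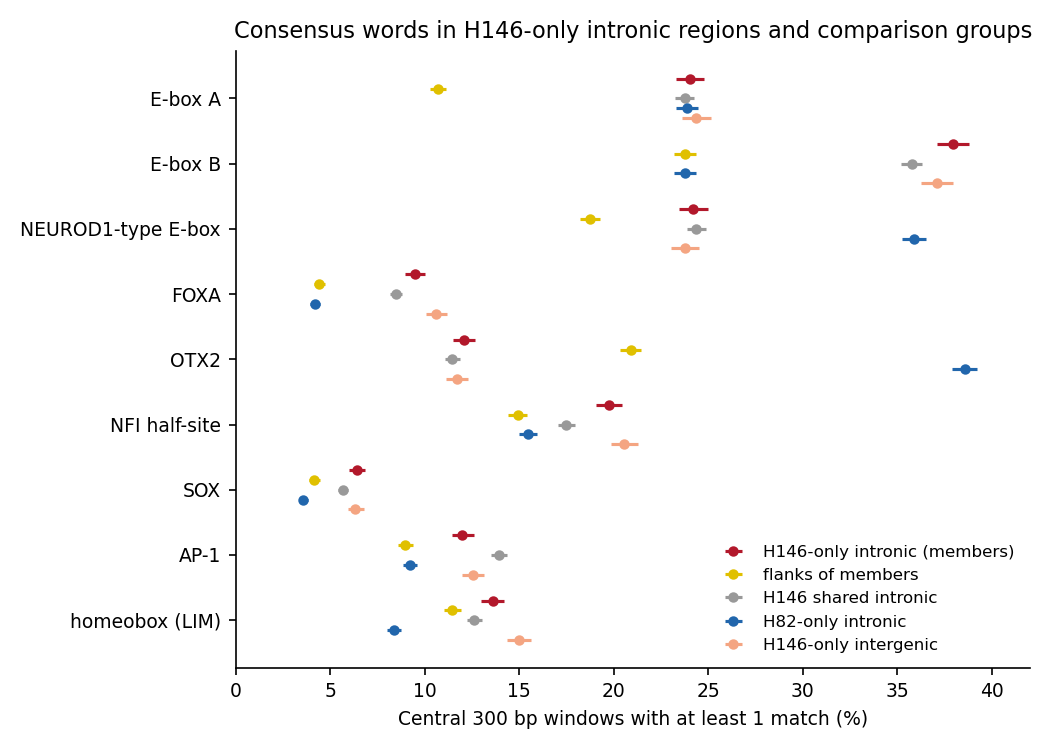
Points give the percent of central 300 bp windows with at least 1 match, bars the 95% Wilson interval, for 9 consensus words in members and 4 comparison groups. E-box A (CAGCTG) is near 24% in every group of regions and 10.7% in flanks, while E-box B (CAGGTG) and FOXA words separate all 3 H146 groups from the H82-only regions and flanks.

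The words sat at the middle of the members. Within 50 bp of the centre, CAGCTG was 2.56 times as dense as it was 800 to 1000 bp away, CAGGTG 2.06 times, the forkhead word 3.12 times, the SOX word 1.92 times and the NFI half-site 1.53 times. CAGATG was 1.42 times as dense, and the OTX2 word 0.501 times. The other H146 groups were alike in direction. Shared intronic regions had ratios of 2.27 for CAGCTG, 1.70 for CAGGTG, 2.48 for the forkhead word and 0.496 for the OTX2 word. H146-only intergenic regions had 3.01, 2.12, 3.27 and 0.511 for the same words. In H82-only intronic regions the ratios were 2.48 for CAGCTG, 2.47 for CAGATG, 2.61 for the OTX2 word, 0.849 for CAGGTG and 1.05 for the forkhead word. These ratios are pooled over regions and carry no test.

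**Figure D5:**
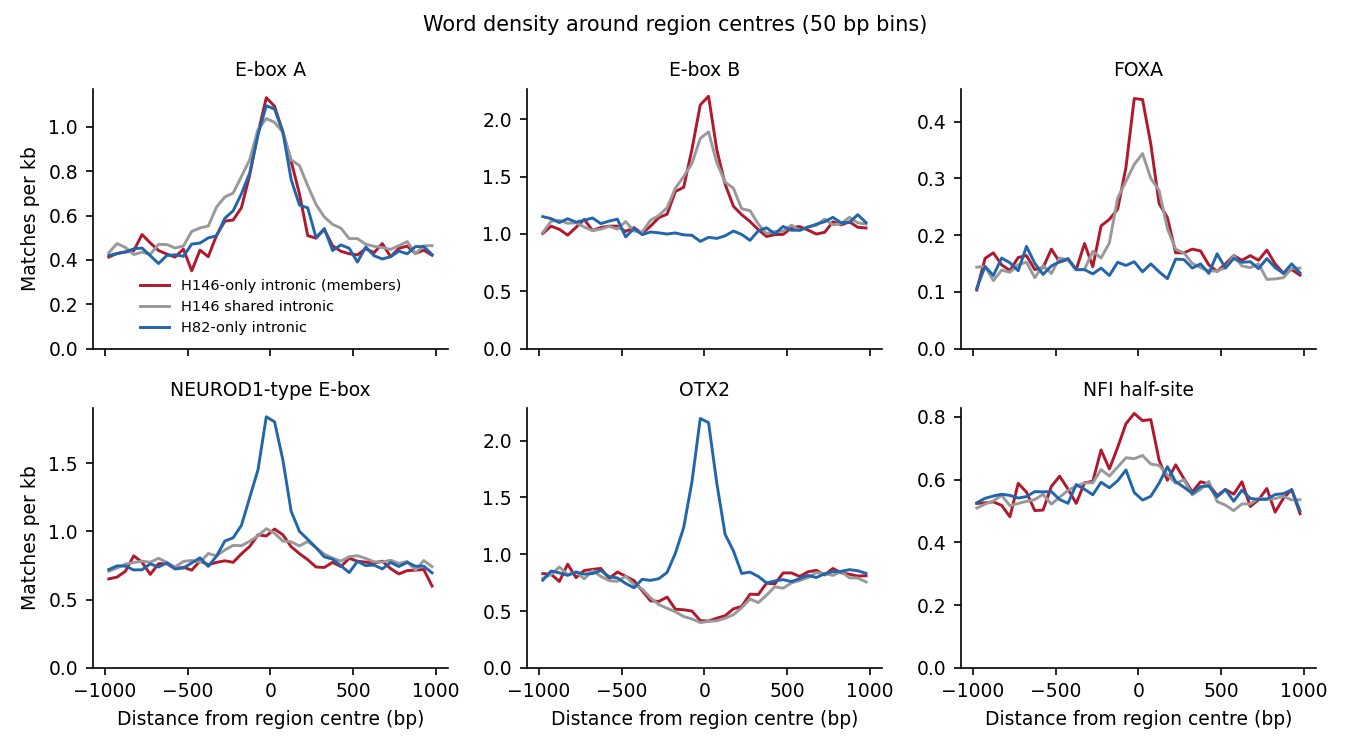
Lines give matches per kb in 50 bp bins up to 1000 bp to either side of the region centre, for members, shared H146 intronic regions and H82-only intronic regions. The members peak at the centre for E-box A (CAGCTG), E-box B (CAGGTG) and FOXA and dip for OTX2, whereas H82-only regions peak for E-box A, the NEUROD1-type E-box and OTX2.

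Against the H146 intronic regions that H82 shared, the members differed less. CAGCTG was at 24.0% and 23.7% (difference 0.268 ± 0.536, adjusted permutation p = 0.782) and CAGATG at 24.2% and 24.4% (−0.153 ± 0.585, adjusted permutation p = 0.744). The difference in CAGCTG was 1.99 points and passed the test (adjusted permutation p = 0.0242) once the shared regions were weighted to the GC content of the members. In all, 9 words were higher in members and 3 lower. NFI half-sites were at 19.7% against 17.5% (difference 2.26 ± 0.325, adjusted permutation p = 0.00032, higher on 20 of 22 chromosomes). CAAATG was at 22.1% against 18.4%, and lost the call under the GC weights (1.64 points, adjusted permutation p = 0.0518). CAGGTG (2.19 ± 0.538) and the forkhead word (1.01 ± 0.326) passed as well, and their differences became −0.277 and −0.101 with widths of 500 bp to under 1 kb. The CTCF word, that of the insulator protein, was in 0.229% of members and 0.706% of shared regions, and the AP-1 word (TGANTCA) in 11.99% and 13.9%. Shared regions were richer in GC (49.2% against 46.4%) and in CpG (15.4 against 11.2 per kb), each on 22 of 22 chromosomes, and wider (median 541 against 401 bp).

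Against H82-only intronic regions, 10 words were higher in members and 5 lower. The contrast of words between the atlases was already known when these groups were chosen, so the values here serve to place the members. CAGCTG did not separate them, at 24.0% and 23.9% (difference 0.164 ± 0.608, adjusted permutation p = 0.691), and with GC weights the difference was 1.52 points (adjusted permutation p = 0.0238). The forms around it did. CAGGTG was at 37.9% against 23.8%, CAGATG at 24.2% against 35.9%, the forkhead word at 9.48% against 4.17% and the OTX2 word at 12.1% against 38.6%, a difference of −26.5 ± 1.22 points. For CAGGTG and the forkhead word the H82-only regions were thus near the flanks of the members, which had 23.8% and 4.43%. The homeobox word TAATTA was at 13.6% against 8.38%.

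The members were close to the H146-only regions between genes. Of the 24 words, 0 were higher and 1 was lower by the adjusted permutation p, and 4 words had an unadjusted permutation p under 0.05. The word that passed was CAATTG, at 5.36% in members and 6.52% in intergenic regions (difference −1.16 ± 0.275, adjusted permutation p = 0.0238), and it no longer passed without windows that held an Alu word. CAGCTG was at 24.0% and 24.4%, CAGGTG at 37.9% and 37.1% and the forkhead word at 9.48% and 10.6% (difference −1.13 ± 0.405, adjusted permutation p = 0.165). GC content was 46.4% and 46.1%. Either CAGCTG or CAGGTG was found in 52.0% of members and 51.6% of intergenic regions, compared with 31.5% of flanks.

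Some members held more than 1 of these words. Both CAGCTG and the forkhead word occurred in 257 members (2.11%), where the product of their shares is 2.28%. CAGCTG and CAGGTG occurred together in 9.99%, with a product of 9.11%. Counting CAGCTG together with CAGGTG and the forkhead word, 57.0% of members held at least 1, compared with 34.9% of flanks and 44.3% of H82-only intronic regions. Among hosts, CAGCTG was in 11 of 29 members of TRAPPC9, 10 of 26 of GRIK4, 9 of 27 of KIF26B and 9 of 24 of NRXN3. It was in 3 of 21 members of NFIB and 4 of 26 of IQCJ-SCHIP1, beside the 2 of 34 of TCF4. Among the 15 hosts with the most members, the forkhead word was most frequent in MACROD2, in 5 of 22 members, and it was in 0 of 23 members of TENM3. These counts per gene are small and were not tested.

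Position within the gene was the last feature. The first intron of the canonical transcript held 23.9% of all members, of which 10.8% lay in no canonical intron. First introns made up 24.6% of canonical intron bases. The share of members counts those outside canonical introns and the share of bases does not, so they are not directly comparable. The share in first introns was 23.3% for shared regions (difference 0.593 ± 0.537 points, adjusted permutation p = 0.816) and 25.4% for H82-only regions (−1.48 ± 0.956 points, adjusted permutation p = 0.00925 over 12 comparisons of position and composition). Members lay farther from the 5′ end of their host, at a median of 75.4 kb, than shared regions at 69.4 kb (adjusted permutation p = 0.00952) or H82-only regions at 63.3 kb (difference 12.01 ± 3.41 kb, adjusted permutation p = 0.00146, farther on 19 of 22 chromosomes).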

How the data were processed

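Chromatin accessibility was measured by ATAC-seq in 7 H146 and 6 H82 libraries, grouped by the labels. Per the study's methods and the submitters' processing notes, the authors trimmed reads with Trim Galore 0.4.4, aligned them to hg38 with Bowtie2 2.3.4, removed duplicates, called peaks per sample with MACS2, and merged peaks of a line within 500 bp. The deposited values used here are the starts and ends of these merged regions, without scores or counts. Pooling over treated and untreated libraries lets a region enter an atlas from any 1 library, so the number of regions grows with the number and depth of libraries, and merging sets the widths. A test of FHD-286 on counts had been planned and was not run, because the files hold positions only.

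The reference sequence and the GENCODE release 44 annotation were on the same build, hg38. Exons and 5′ ends were those of protein-coding genes, and distance to a 5′ end was taken from the nearest edge of a region. Coordinates are 1-based. The members, gene lists and words were chosen with earlier results of these data known. Python 3.11.15 with numpy 2.4.6, pandas 2.3.3 and scipy 1.17.1 was used. Words were matched exactly on both strands in the central 300 bp. They were the E-box CANNTG in its 10 forms, with FOXA as the word TGTTTAC, OTX2 as the word TAATCC, AP-1 as the word TGANTCA, the insulator factor CTCF as the word AGGGGGCGC, TEAD as the word GGAATG, the octamer as ATGCAAAT, RE1 as the word TCAGCACC, NFI as the half-site TTGGCA, SOX as the word ACAATGG, ETS as the word CCGGAAG, NKX2 as the word CACTTGA, which contains an E-box form, GATA factors by AGATAA, LIM homeobox factors by TAATTA and ONECUT factors by ATCGAT. Windows with an unknown base, 8 in all and none of them of a member, were left out. Differences between groups were tested by flipping the sign of the per-chromosome difference (22 autosomes, 100000 resamples, seed 1, two-sided), with Benjamini-Hochberg adjustment over 24 words in each comparison or over 12 comparisons of position and composition, and a threshold of 0.05. The test was tried on simulated data first. Genes were named as the 15 hosts with the most members, the 10 densest of those with 5 or more, the 10 with the most members and no H82-only region, up to 5 per list, and 9 genes in any case, and words as CAGCTG, the NEUROD1 form CAGATG, FOXA, OTX2, RE1, CTCF and the 3 largest differences of each comparison. Some genes that met the rule are not reported here.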

Additional observations from a re-analysis of the deposited data

How the results depend on the processing

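No paired analysis was possible because each line gives 1 pooled list with no value per library. For the same reason no library could be left out, and depth was unknown. Of the comparison-level values, 96 stayed within the limits set and 17 did not. With widths of 500 bp to under 1 kb there were 3268 members in 2161 hosts, 63 of which held 5 or more, with 19 members in TCF4, and 9 of the 15 leading hosts stayed in the top 15. With any width there were 22972 members and 1399 hosts of 5 or more. The other alternatives on location left 11387 to 12050 members. Without chromosome 18, which was added after seeing the data, 5136 hosts were left, 588 of them with 5 or more members.

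At widths of 500 bp to under 1 kb, 8 words were higher and 2 lower than in flanks, 2 were higher than in shared regions and 2 lower than in H82-only regions. FOXA and CAGGTG then turned to −0.101 and −0.277 points against shared regions, and CpG against flanks was 0.687 per kb (adjusted permutation p = 0.161). Fewer regions entered these fits. With the GC weights, 4 words were higher than in shared regions and OTX2 turned to −0.508 points. Without windows holding an Alu word, OTX2 against shared regions was −0.169 points, and 0 words were lower than in intergenic regions. Words read backwards gave 6 higher and 3 lower against flanks, 0 lower against shared, and 1 higher and 0 lower against intergenic regions. The backward form of CAGCTG gains a CpG, so it is no control for that word. FOXA against flanks gave 0.112 points backwards and CAGGTG 2.78. The sign changed for CAGATG (−0.00874) and OTX2 (0.510) against flanks, NFI (−0.236) and CAGGTG (−0.573) against shared regions, and CAATTG (0.230) against intergenic regions. The cause of these changes was not tested. RE1 against flanks, at 1.88% and 1.33% (adjusted permutation p = 0.0533), passed the test when counted per kb over whole regions (0.0216 per kb, adjusted permutation p = 0.00558).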
